A study of Danio rerio with 6 samples.

Results

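The genes of the ubiquitin conjugation machinery and of the deubiquitinating enzymes that reverse it were examined in whole zebrafish larvae after embryonic alcohol exposure (EAE). Members were taken by gene symbol alone: activating enzyme genes such as *uba1*, *uba2* and *uba3*, every *ube2* gene followed by a letter, the *usp*, *uchl*, *otud*, *otub* and *josd* genes, and *bap1*, leaving out *usp18*. The rule found 103 of the 30713 named genes in the table, comprising 4 activating, 39 conjugating and 60 deubiquitinating enzyme genes, and all 103 passed the filter on low counts. One of the 60, *usp6nl*, matches by symbol but encodes a GTPase-activating protein. A further 4 of the 60 belong to the family but were listed here as lacking protease activity, a label that these data do not test. No row stood under *uba6*, which the rule also names, or under a *ube2m* symbol, so these were not analysed here.

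The data came from 6 pools of wild-type AB larvae, each of 30 whole animals at 7 dpf, with 1 poly-A RNA library apiece. The EAE pools (n = 3) had been kept in 1% EtOH between 12 hpf and 5 dpf, and the control pools (n = 3) in 0% EtOH over the same period. All larvae then stayed in water without EtOH until 7 dpf and were fed. Their food is given as paramecia alone in the paper and as paramecia followed by artemia in the labels. The paper describes independent groups, clutch-matched siblings in general and combined clutches for the RNA pools, and the labels describe siblings combined into independent tubes. How far the pools are separate clutches is therefore not settled, and p-values measure the spread between these pools, which may be technical. Each library is a homogenate of whole larvae, in which fewer cells of a type and less RNA per cell cannot be told apart.

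Counts on named genes totalled 19921809 to 23638705 in EAE pools and 17264955 to 20724876 in control pools. Levels are given as CPM (counts scaled to library size with edgeR's TMM factors), and a gene is called changed when its adjusted p is under 0.05 by the quasi-likelihood test of edgeR, adjusted over the 21617 genes that passed the filter. At that threshold 14.2% of all tested genes changed. As shares of all tested genes, 7.22% were called higher and 6.95% lower. Markers of muscle, pancreas, intestine, liver, skin, blood and neurons were all present. None of the listed ones that had a row was at 0 in every pool, and a few listed ones had no row. Several of these lists moved with exposure. The 28 neuronal markers summed to 4037 to 4457 CPM in EAE pools and 4911 to 5000 CPM in control pools, and 16 of them were lower. The 14 proliferation markers summed to 377 to 489 CPM in EAE pools and 317 to 385 CPM in control pools, with 7 higher, and 6 of 12 liver markers were also higher. Of 12 skin markers 5 were higher and 2 lower, and their sum was 9845 to 10776 CPM in EAE pools and 10722 to 11417 CPM in control pools. Of 17 listed genes linked to the circadian clock, 11 were lower. Each of the 17 was lower in every EAE pool than in every control pool, which held for 16.0% of all tested genes. The part of these shifts in the values below was not tested.

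Ubiquitin is a small protein that cells attach to other proteins as a signal, most often for destruction by the proteasome. An activating enzyme (E1) loads ubiquitin with the use of ATP, a conjugating enzyme (E2) carries it, and a ligase (E3) brings the E2 to the substrate. Deubiquitinating enzymes cut ubiquitin off again, which rescues substrates, edits chains and returns ubiquitin to the free pool. Close relatives of the same enzymes handle the ubiquitin-like modifiers SUMO and NEDD8.

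Of the 103 genes 11 changed, 10 of them upward and 1 downward. That is 10.7% of the members, against 14.2% of all tested genes and 15.4% of the 19529 genes whose mean level lay in the members' range. Among those 19529 genes, 7.78% were called higher and 7.63% lower. The range ran from 1.305 to 1351 CPM and took in most tested genes, so it did not match the members by level. Among the conjugating enzymes, *ube2l3b*, *ube2na*, *ube2g2* and *ube2l3a* rose and *ube2ql1* fell. Among the deubiquitinating enzymes, *usp11*, *usp14*, *usp4*, *otud4*, *usp5* and *usp24* rose and none fell. Every one of these shifts was small, between 1.11-fold and 1.25-fold in the upward direction. In each of these 11 genes, which were picked on the same pools, the EAE and control values did not overlap. Every EAE pool lay above every control pool in 16.0% of all tested genes, and below in 16.0%.

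**Figure D1:**
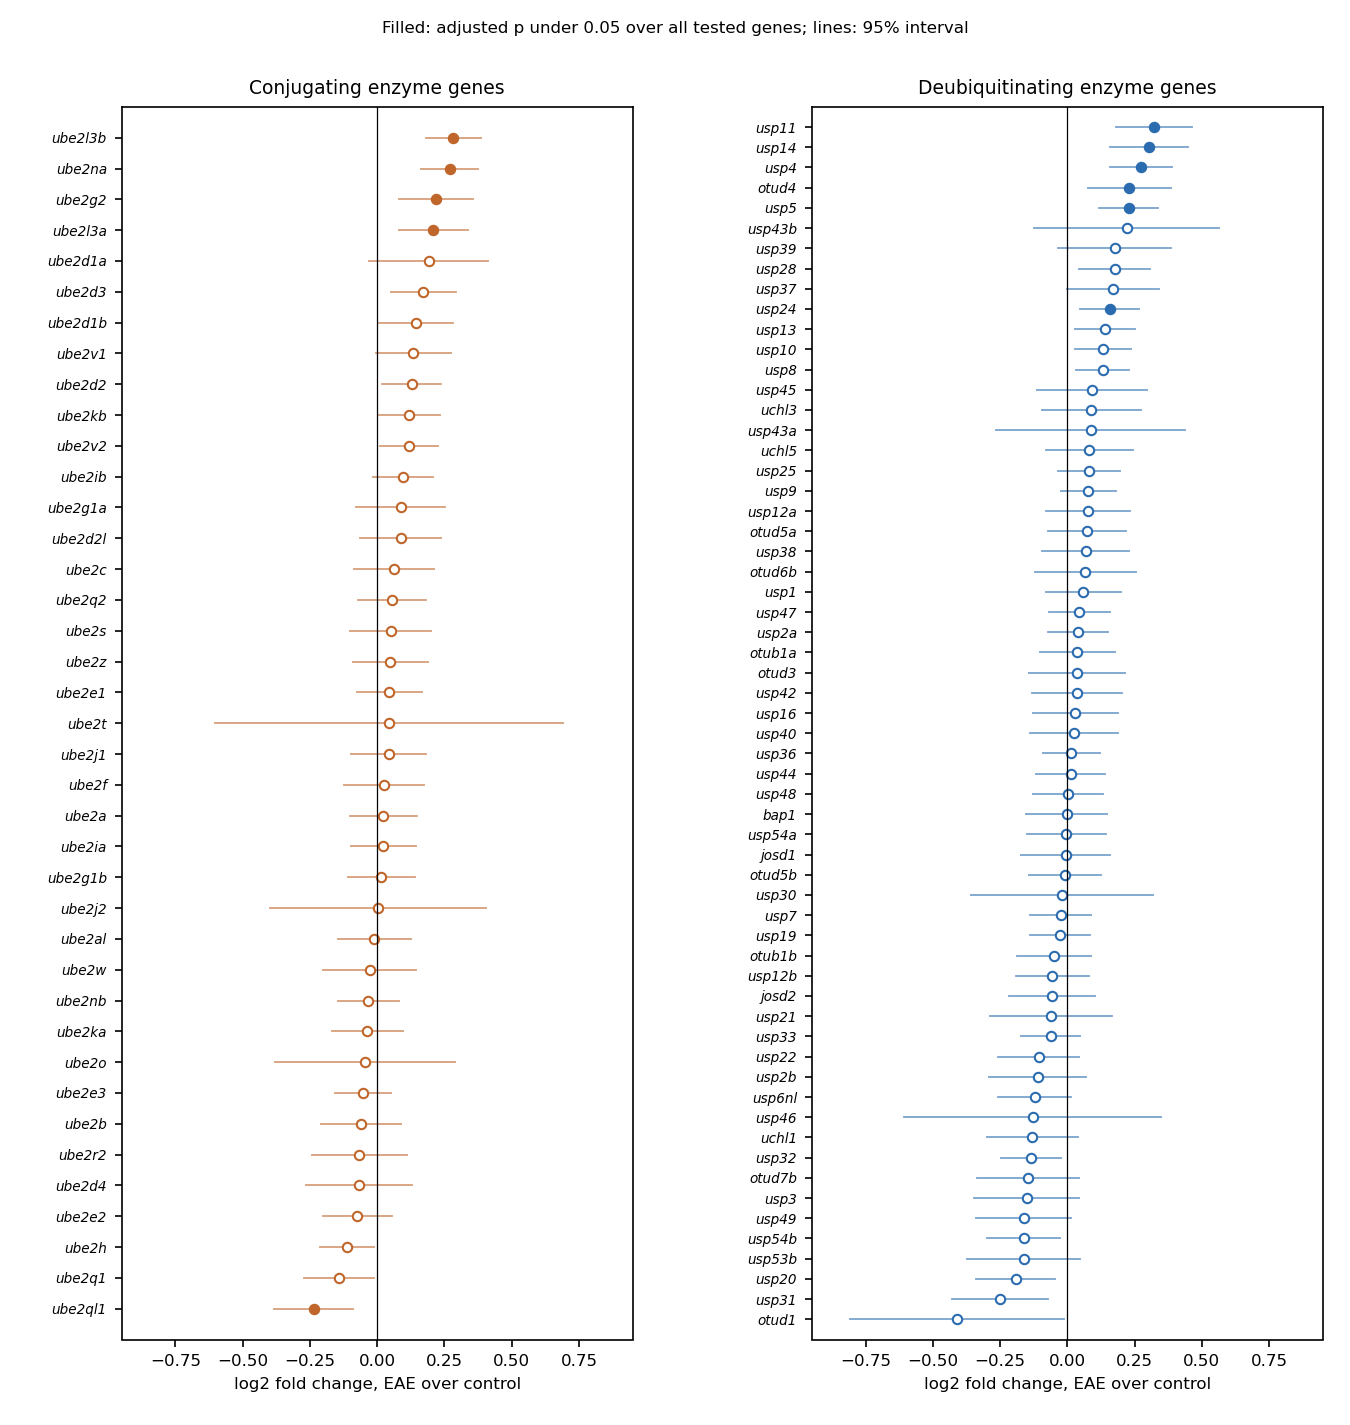
Log2 fold change (EAE over control) of the 39 conjugating enzyme genes (left panel, orange) and the 60 deubiquitinating enzyme genes (right panel, blue), with lines for the 95% interval. Filled points passed the test, and 10 of the 11 filled points lie right of 0.

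The conjugating and deubiquitinating classes were set side by side, and the difference between them was not tested. Of the 39 conjugating enzyme genes 5 changed (12.8%), and their median log2 fold change was 0.04, with a range of -0.24 to 0.28. Of the 60 deubiquitinating enzyme genes 6 changed (10.0%), and their median was 0.03, with a range of -0.41 to 0.32. The median over all tested genes was 0.0008, so both class medians sat slightly above it. The deubiquitinating median ranged from 0.017 (without EAE replicate 1) to 0.036 (without control replicate 1) when 1 pool was left out. It was 0.032 without the 4 genes listed as lacking protease activity. Within a pool and relative to the control mean, the deubiquitinating median was -0.0076, 0.021 and 0.013 in EAE pools. In control pools it was 0.030, -0.016 and -0.0070, so the groups overlapped. The conjugating median was 0.042, 0.041 and 0.018 in EAE pools. In control pools it was 0.0065, -0.019 and 0.0054, so for this class the groups did not overlap. Every EAE pool exceeded every control pool for 10 conjugating (25.6%) and 9 deubiquitinating enzyme genes (15.0%), against 16.0% of all tested genes. The reverse order held for 3 (7.69%) and 4 (6.67%) genes, against 16.0% of all tested genes.

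Summed over the conjugating and over the deubiquitinating class, the levels differed by a few percent. The 39 conjugating enzyme genes summed to 2875, 2778 and 2899 CPM in EAE pools and to 2708, 2772 and 2765 CPM in control pools, an excess of 3.72%. The largest share of that sum belonged to *ube2e1*, which had 1372 ± 60.0 CPM in EAE pools and 1330.5 ± 42.5 CPM in control pools (SD, n = 3 each) and did not pass the test. Without it the class summed to 1481, 1473 and 1480.2 CPM in EAE pools and 1422, 1402 and 1429 CPM in control pools, an excess of 4.26%. The 60 deubiquitinating enzyme genes summed to 2366, 2366 and 2417 CPM in EAE pools and 2346, 2257 and 2285 CPM in control pools, an excess of 3.79%. For both classes every EAE total lay above every control total, in the conjugating class by a narrow margin while *ube2e1* was included.

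Most members were measured closely enough to bound their change. The 95% interval of the fold change lay within 1.25-fold in either direction for 75 of 103 members (72.8%), of which 30 were conjugating and 42 deubiquitinating enzyme genes. The same held for 42.5% of all tested genes and for 46.6% of those whose mean level lay in the members' range, which is not a match by level. Log2 fold changes carried a median SE of 0.0666 over the members, 0.0956 over all tested genes and 0.0891 over those in the members' range.

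The first group holds deubiquitinating enzymes that act at the proteasome or on free ubiquitin chains, with *usp13* included as a relative of *usp5*. *usp14*, whose product binds the regulatory cap of the proteasome and trims ubiquitin from arriving substrates, had 23.2, 22.5 and 24.7 CPM in EAE pools and 19.5, 19.0 and 18.6 CPM in control pools. The groups were well apart and the log2 fold change was 0.30 (SE 0.0696, adjusted p = 0.00734, edgeR). *uchl5*, the other member that docks on the proteasome cap, had a log2 fold change of 0.08 with an interval of -0.08 to 0.24 and did not pass (adjusted p = 0.525, edgeR). *usp5*, which takes apart unanchored ubiquitin chains, had 102, 102 and 109 CPM in EAE pools and 93.0, 85.9 and 88.9 CPM in control pools, with a log2 fold change of 0.23 (SE 0.052, adjusted p = 0.0071, edgeR). Its relative *usp13* stood at 0.14 and did not pass (adjusted p = 0.0904, edgeR). Thus 2 of the 4 genes in the group rose, against 7.22% of all tested genes, and the mean of each of the 4 was higher in EAE pools.

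*usp11* and *usp4* encode closely related ubiquitin-specific proteases that share their domain layout, and both rose. At 0.32, *usp11* had the highest log2 fold change of all 103 genes (SE 0.067, interval 0.18 to 0.46, adjusted p = 0.00403, edgeR). Its levels were 25.04, 25.3 and 26.8 CPM in EAE pools and 21.2, 20.7 and 19.8 CPM in control pools. *usp4* had 59.18, 60.2 and 56.3 CPM in EAE pools and 50.1, 48.9 and 46.2 CPM in control pools. Its log2 fold change was 0.27 (SE 0.055, adjusted p = 0.00296, edgeR), and the lowest EAE pool lay clearly above the highest control pool. The log2 ratio between the genes differed between the groups by -0.05, with *usp4* on top of the ratio, and an exact permutation test gave p = 0.9.

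Calls on *otud4* and *usp24* were weaker. *otud4*, of the ovarian tumour (OTU) protease family, had 21.4, 23.3 and 24.8 CPM in EAE pools and 19.5, 20.3 and 19.3 CPM in control pools (log2 fold change 0.23, SE 0.073, adjusted p = 0.0414, edgeR). Its call was lost when control replicate 1, 2 or 3 or EAE replicate 2 or 3 was left out, with adjusted p-values in edgeR of 0.123, 0.069, 0.109, 0.0871 and 0.136 in that order. *usp24*, a large ubiquitin-specific protease, had 78.5, 75.8 and 77.2 CPM in EAE pools and 70.9, 65.6 and 71.0 CPM in control pools (log2 fold change 0.16, SE 0.051, adjusted p = 0.0491, edgeR). It was called under none of the 10 alternative fits, and leaving out any single pool gave adjusted p-values from 0.0672 (without EAE replicate 2) to 0.199 (without control replicate 2) in edgeR.

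Reads on *usp24*, *usp14* and *ube2l3b* may include reads of overlapping genes, since the use of strand in counting is not given in the sources used here. In the RefSeq annotation of another build, GRCz12tu, *usp24* spans several genes that were also tested. Of these only the desmoglein gene *dsg2.1* passed (69.4 CPM in EAE and 57.6 CPM in control pools, log2 fold change 0.27, adjusted p = 0.00546, edgeR). The others had log2 fold changes on both sides of 0. Among them *dsc2l*, with 57.7 CPM in EAE and 58.4 CPM in control pools, stood at -0.02. *usp14* overlaps *thoc1* (log2 fold change 0.07) and *ube2l3b* overlaps *ydjc* (log2 fold change 0.12), and neither partner passed the test.

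The remaining deubiquitinating enzymes gave no call. The 6 ubiquitin-specific proteases that act on histones, among them *usp16*, ranged from -0.16 to 0.03 on the log2 scale with a median of -0.08. *bap1*, the catalytic part of a histone H2A deubiquitinase complex, stood at -0.003 with an adjusted p of 0.987 in edgeR. Its relatives among the ubiquitin C-terminal hydrolases, *uchl1*, which in mammals is abundant in neurons, and *uchl3*, had log2 fold changes of -0.13 and 0.09 (adjusted p = 0.309 and 0.545, edgeR). *uchl1* overlaps *anxa5b*, which rose (log2 fold change 0.36), in the same RefSeq annotation. *usp7*, known in mammals for deubiquitinating MDM2 and p53, stood at -0.02, and the OTU genes *otub1a* and *otub1b*, whose human counterpart also inhibits E2 enzymes by binding them, stood at 0.04 and -0.05 (adjusted p = 0.809, 0.761 and 0.677, edgeR). Both Josephin-domain genes lay close to 0, and so did *usp19* and *usp25*, which are anchored in or linked to the endoplasmic reticulum (-0.03 and 0.08).

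The lowest values of the class belonged to *otud1* and *usp31*. *otud1*, an OTU protease, had 1.76, 2.23 and 2.92 CPM in EAE pools and 2.92, 3.13 and 3.06 CPM in control pools. The groups barely parted, the log2 fold change was -0.41 with an SE of 0.19, and the adjusted p was 0.158 in edgeR. Single pools decided this value, which was -0.24 without EAE replicate 1 (adjusted p = 0.511) and -0.61, past the threshold, without EAE replicate 3 (adjusted p = 0.0471, edgeR). *usp31*, another ubiquitin-specific protease, had 11.8, 12.5 and 13.1 CPM in EAE pools and 15.8, 14.8 and 13.8 CPM in control pools, and it too missed the threshold (log2 fold change -0.25, adjusted p = 0.0566, edgeR), but passed it without EAE replicate 3 (-0.29, adjusted p = 0.0486). The other ubiquitin-specific proteases, 23 genes with no shared role and including *usp24* and *usp31*, had a median of 0.04.

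**Figure D2:**
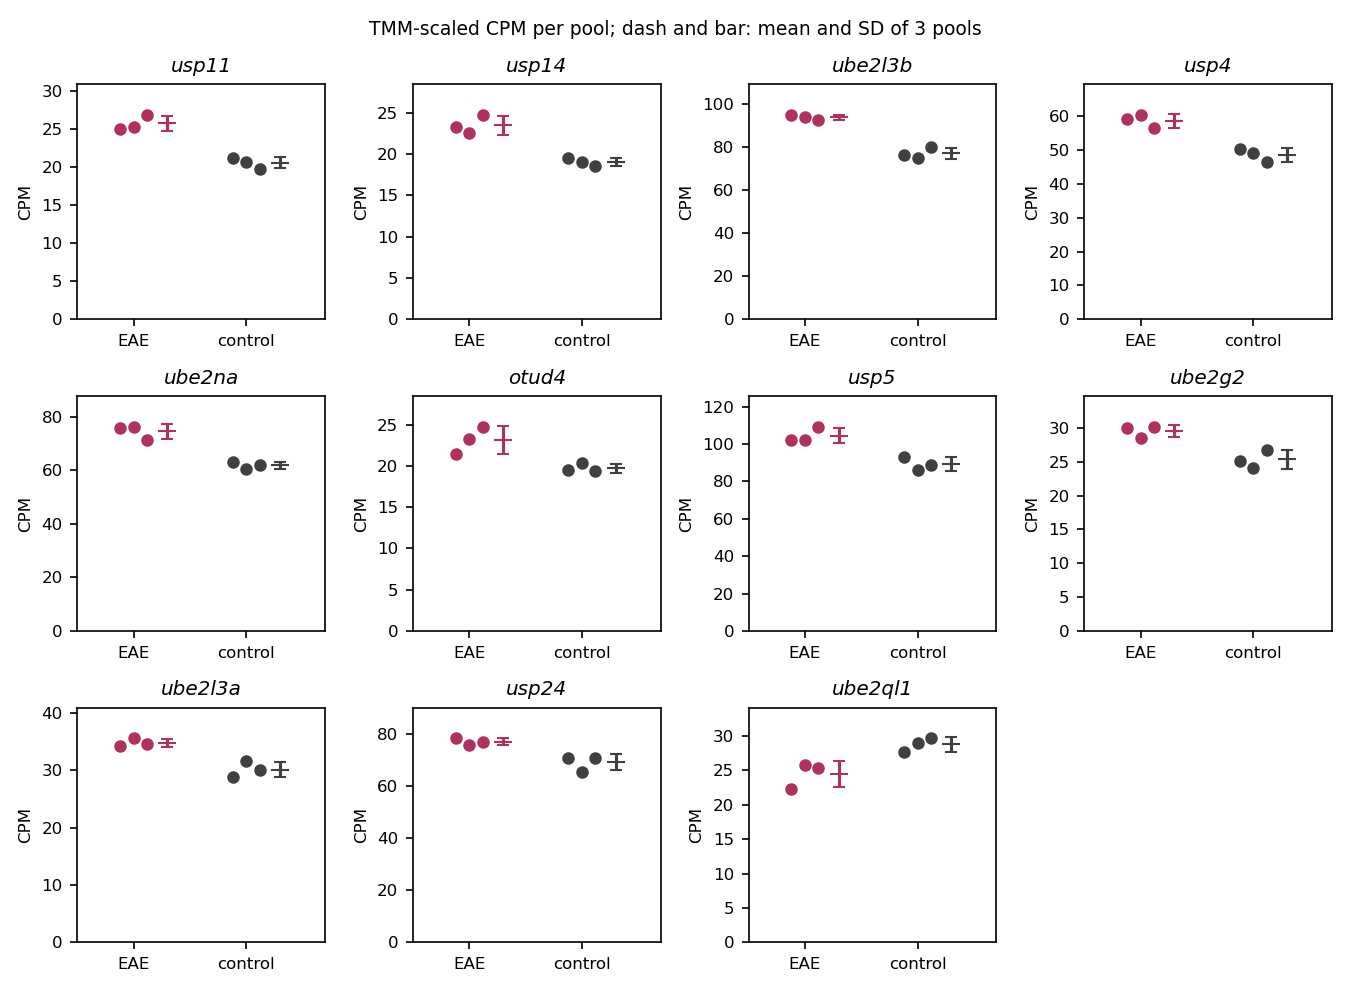
Level of each of the 11 changed genes in the 3 EAE pools and the 3 control pools, in TMM-scaled CPM on axes that start at 0, with the mean and SD beside the points. The EAE points lie above the control points in 10 panels and below them in that of *ube2ql1*.

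Among the conjugating enzymes, the pair *ube2l3a* and *ube2l3b* rose together. Their human counterpart UBE2L3 serves ligases of the RBR and HECT types, which take ubiquitin onto themselves before passing it on. *ube2l3b* had 94.9, 94.3 and 92.6 CPM in EAE pools and 76.2, 75.2 and 80.03 CPM in control pools, and at 0.28 (SE 0.049, adjusted p = 0.000978, edgeR) it had both the highest log2 fold change of the E2 genes and the smallest p of all members. *ube2l3a* had 34.3, 35.6 and 34.5 CPM in EAE pools and 28.8, 31.6 and 30.01 CPM in control pools (log2 fold change 0.21, SE 0.061, adjusted p = 0.0282, edgeR). The EAE pools of both copies lay above all control pools. Without control replicate 1 or 3 or EAE replicate 1 or 2, *ube2l3a* no longer passed (adjusted p = 0.13, 0.0726, 0.0521 and 0.0764 in edgeR, in that order).

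UBE2N with a UBE2V partner builds the ubiquitin chains that serve in signalling and DNA repair more than in degradation. Of the zebrafish copies, *ube2na* had 75.8, 76.3 and 71.3 CPM in EAE pools and 62.9, 60.5 and 61.97 CPM in control pools, with a log2 fold change of 0.27 (SE 0.051, interval 0.16 to 0.38, adjusted p = 0.00212, edgeR). *ube2nb* stood at -0.03 and did not pass (adjusted p = 0.727, edgeR). The partner genes *ube2v1* and *ube2v2* had log2 fold changes of 0.13 and 0.12, short of the threshold (adjusted p = 0.192 and 0.136, edgeR).

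Of 8 genes for enzymes that form degradative chains or serve degradation from the endoplasmic reticulum, 1 changed (12.5%, against 14.2% of all tested genes). *ube2g2*, whose product works with ligases in the membrane of the endoplasmic reticulum, had 30.0, 28.5 and 30.2 CPM in EAE pools and 25.2, 24.1 and 26.8 CPM in control pools (log2 fold change 0.22, SE 0.065, adjusted p = 0.0313, edgeR). The call was lost without control replicate 1 or 2 or EAE replicate 1 or 3, with adjusted p-values in edgeR of 0.104, 0.124, 0.0888 and 0.0693 in that order. Its relatives *ube2g1a* and *ube2g1b* stood at 0.09 and 0.02, and the membrane-anchored *ube2j1* and *ube2j2* at 0.04 and 0.003. *ube2ka*, *ube2kb* and *ube2r2*, which extend degradative chains, had log2 fold changes of -0.04, 0.12 and -0.07. None of these 7 genes passed.

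The UBE2D family, broadly used E2 enzymes that place the first ubiquitin on many substrates, had 6 genes and no call, although its median was 0.14. *ube2d3* came nearest, at 0.17 with an adjusted p of 0.0541 in edgeR, followed by *ube2d2* at 0.13, *ube2d1b* at 0.14 and *ube2d1a* at 0.19 (adjusted p = 0.106, 0.158 and 0.243, edgeR). *ube2d3* passed without control replicate 3 (0.23, adjusted p = 0.029, edgeR) and with no filter on low counts (adjusted p = 0.047), and *ube2d1a* was at 0.08 without EAE replicate 3, its highest pool. *ube2d2l* stood at 0.09 and *ube2d4* at -0.07. Every EAE pool exceeded every control pool in 3 of the 6, against 16.0% of all tested genes.

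The 6 E2 genes of the cell cycle and DNA repair ranged only from -0.06 to 0.06. *ube2c* and *ube2s*, which build chains for the anaphase-promoting complex, stood at 0.06 (interval -0.09 to 0.21) and 0.05 (adjusted p = 0.602 and 0.689, edgeR). *ube2t*, the E2 of the Fanconi anaemia pathway, was low at 1.33 CPM in EAE pools and 1.28 CPM in control pools, and its log2 fold change of 0.04 had a wide interval of -0.60 to 0.69. EAE replicate 3 held 12 counts against 37 and 36 in the other EAE pools, and without it the value was 0.37 (adjusted p = 0.378, edgeR). Over the same pools the 14 proliferation markers had a median log2 fold change of 0.39.

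E2 enzymes of ubiquitin-like modifiers also stayed short of the threshold. *ube2ia* and *ube2ib*, the copies of the SUMO conjugating enzyme, had log2 fold changes of 0.02 and 0.10, and *ube2f*, one of the NEDD8 conjugating enzymes, had 0.03 (adjusted p = 0.835, 0.246 and 0.854, edgeR). *ube2z*, which accepts ubiquitin and FAT10 from UBA6 in mammals, stood at 0.05 (adjusted p = 0.681, edgeR).

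*ube2ql1* was the only member called lower. It belongs to the UBE2Q group, E2-like proteins with a long N-terminal part, and had 22.3, 25.7 and 25.4 CPM in EAE pools and 27.6, 29.0 and 29.7 CPM in control pools. The groups were apart, the log2 fold change was -0.24 (SE 0.070, interval -0.38 to -0.09) and the adjusted p was 0.0313 in edgeR. The call was lost without control replicate 1, 2 or 3 or EAE replicate 1 (adjusted p = 0.0534, 0.083, 0.113 and 0.149 in edgeR, in that order). The sum of the neuronal markers moved in the same direction and was likewise lowest in EAE replicate 1; its part in this value was not tested.

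The activating enzyme genes *uba1*, *uba2* and *uba3* did not pass the test. Every EAE pool lay above every control pool for *uba1* and *uba2*, as for 16.0% of all tested genes. *uba1*, the main ubiquitin E1, had 256, 257 and 262 CPM in EAE pools and 243, 231 and 231 CPM in control pools, with a log2 fold change of 0.14 (SE 0.048, adjusted p = 0.0654, edgeR). *uba2* and *uba3*, the catalytic E1 subunits for SUMO and NEDD8, stood at 0.09 and -0.04 (adjusted p = 0.269 and 0.767, edgeR).

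Partners in 16 pairs of related members were compared within each pool, 12 of the pairs being a and b copies of one gene, to see whether both partners moved alike. In 2 pairs, *ube2l3a* with *ube2l3b* and *usp4* with *usp11*, both genes rose. In 3 pairs the log2 ratio of the partners did not overlap between the groups. For *ube2na* over *ube2nb* it was 0.68, 0.64 and 0.57 in EAE pools and 0.41, 0.29 and 0.28 in control pools, a difference of 0.30. For *ube2ka* over *ube2kb* the difference was -0.16, and for *usp20* over *usp33* it was -0.13. Each of the 3 gave p = 0.1 in a two-sided exact permutation test, the smallest that 3 pools against 3 allow, and 0.356 after Benjamini-Hochberg adjustment over 16 pairs. How reads that align to both copies were assigned is not given in the sources used here, so the ratios of near-identical copies are uncertain.

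**Figure D3:**
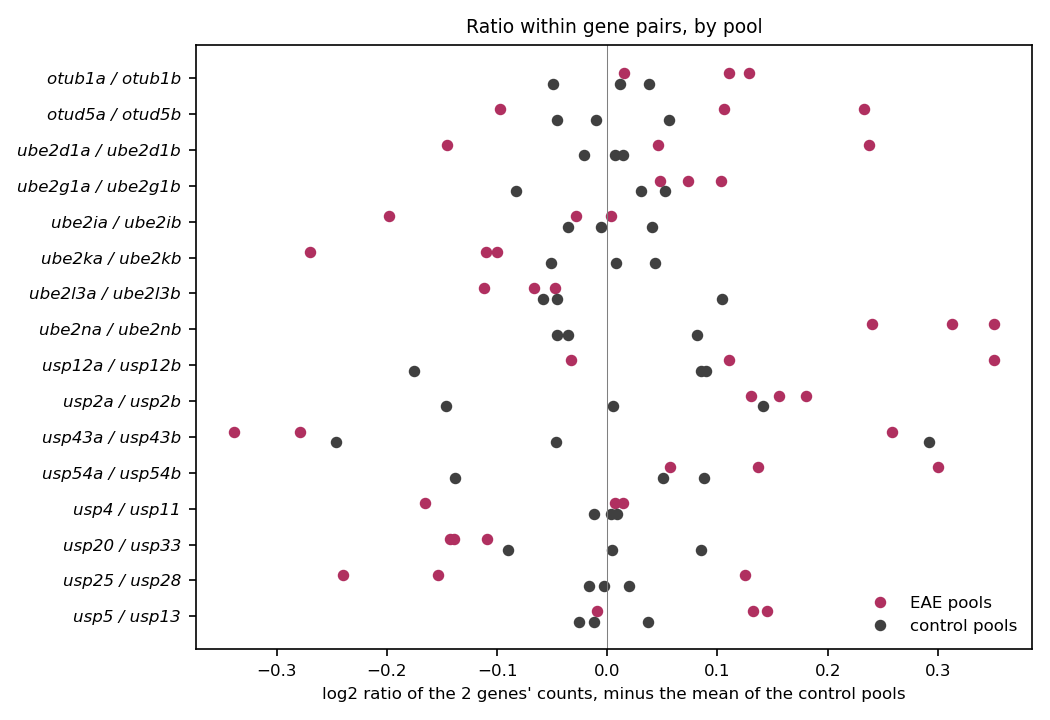
Log2 ratio of the partners' counts in each of 16 related pairs, minus the mean of the control pools, for the 3 EAE pools and the 3 control pools (pseudocount 0.5). The groups are apart for *ube2na* over *ube2nb*, where EAE pools lie higher, and for *ube2ka* over *ube2kb* and *usp20* over *usp33*, where they lie lower.

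Genes of the same pathway outside the rule were read from lists of precursors, other deubiquitinases and related proteins, ubiquitin-like modifiers and partner proteins. Among the ubiquitin precursor genes *ubb* rose, with 64.04, 60.96 and 61.4 CPM in EAE pools and 54.1, 45.9 and 47.01 CPM in control pools (log2 fold change 0.34, SE 0.062, adjusted p = 0.00136, edgeR), while *ubc* and *rps27a* stood at 0.01 and 0.02 and did not pass. Of 21 genes for other deubiquitinases and related proteins, which the symbol rule did not take in, 14.3% changed, against 14.2% of all tested genes. Among them *psmd14* rose and *cyldb* and *mpnd* fell. *psmd14*, the metalloprotease of the proteasome cap, had 58.2, 53.1 and 58.7 CPM in EAE pools and 41.04, 41.5 and 41.7 CPM in control pools, a log2 fold change of 0.45 (adjusted p = 3.94e-05, edgeR). *cyldb*, whose mammalian counterpart CYLD removes signalling chains, averaged 12.6 ± 0.905 CPM in EAE pools and 23.0 ± 1.36 CPM in control pools (SD, n = 3 each), a log2 fold change of -0.86 (adjusted p = 1.2e-06, edgeR). The related *cylda*, at 38.8 CPM in EAE pools and 41.0 CPM in control pools, and *cyldl* had log2 fold changes of -0.08 and 0.28. Neither passed (adjusted p = 0.415 and 0.114, edgeR). The changes of *psmd14* and *cyldb* were larger than that of any member.

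Of 22 genes for ubiquitin-like modifiers and their enzymes 2 changed, both upward (9.09%). Over all tested genes 14.2% changed, and 7.22% were called higher. The 2 genes were *isg15*, an interferon-induced modifier, and *uba7*, whose human counterpart is its activating enzyme. Their log2 fold changes were 0.79 and 0.53 (adjusted p = 0.00723 and 1.17e-05, edgeR). Of 20 partners and adaptors 2 changed, both upward (10.0%, against the same shares of all tested genes). *adrm1*, the proteasome cap's receptor that holds UCHL5 in other species, averaged 87.3 ± 4.91 CPM in EAE pools and 64.4 ± 5.05 CPM in control pools (SD, n = 3 each, log2 fold change 0.44, adjusted p = 0.000115, edgeR). *rbx1*, the RING subunit of cullin ligases, had a log2 fold change of 0.28 (adjusted p = 0.0104, edgeR). The medians of the last 3 lists were -0.03 for other deubiquitinases and related proteins, 0.05 for ubiquitin-like modifiers and 0.07 for partners, against 0.0008 over all tested genes.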

How the data were processed

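The authors aligned single-end RNA-Seq reads to GRCz10 with STAR, per the labels, and deposited raw counts per gene symbol for 6 pools. The counting program, annotation and handling of strand and multiple alignments are not given in the sources used here. The unnamed row, 1.50% to 1.57% of each pool's counts, was left out. Counts were filtered with filterByExpr, normalized by TMM (factors 0.986 to 1.02) and tested between groups in edgeR 4.0.16 (R 4.3.3, limma 3.58.1) by the quasi-likelihood F test with Benjamini-Hochberg adjustment over 21617 genes. The standard error is the absolute log2 fold change divided by the square root of F. Replicates of a group differed by more than counting noise (chi-square per degree of freedom 3.54 to 5.06).

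Members and lists were chosen with earlier results of these data known. Named genes are the members that passed, fixed enzymes of each role and the 3 highest and 3 lowest log2 fold changes. Pathway genes outside the rule are named where they passed, with *ubc* and *rps27a* beside *ubb*, and *cylda* and *cyldl* beside *cyldb*. Some named-rule genes are not reported here. Pathway lists were written by hand. *usp16*, *usp20*, *usp33*, *cylda* and *cyldl* were named after their values were seen. Overlapping genes were found by symbol for 101 of 103 members in RefSeq for GRCz12tu, not the authors' build. Alternatives were DESeq2 1.42.0, other size factors, no filter, a replicate block, an adjusted p under 0.01, other memberships and leaving out each pool.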

Additional observations from a re-analysis of the deposited data

How the results depend on the processing

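Of the 11 changed members, *ube2l3b*, *ube2na*, *usp4*, *usp5*, *usp11* and *usp14* passed under all 10 alternative fits, with a highest adjusted p of 0.0416 (*usp5*), and DESeq2 called these 6 members alone. *otud4* passed under 3 fits, *ube2l3a* under 4, *ube2g2* and *ube2ql1* under 5 each and *usp24* under none. Over all genes, DESeq2 called 948 higher and 898 lower, and an adjusted p under 0.01 left 700 higher and 560 lower. Leaving out 1 pool gave 924 to 1497 higher and 717 to 1499 lower. Both DESeq2 and an adjusted p under 0.01 left 2 conjugating enzyme genes higher and 0 lower. Without 1 pool the conjugating class had 2 to 4 genes higher and 0 to 1 lower, with medians of 0.025 to 0.057, the deubiquitinating class had 0 to 3 lower (3 without EAE replicate 3) with medians of 0.017 to 0.036, and the activating class had medians of 0.074 to 0.12.

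Among 10 named members near 0, none of them called, the sign turned in some of the fits without 1 pool. Their log2 fold changes then ran from -0.044 to 0.021 for *bap1*, -0.0013 to 0.055 for *otub1a*, -0.026 to 0.074 for *ube2f*, -0.024 to 0.054 for *ube2g1b*, -0.0039 to 0.059 for *ube2ia*, -0.11 to 0.10 for *ube2j2*, -0.077 to 0.0067 for *ube2ka*, -0.20 to 0.37 for *ube2t*, -0.048 to 0.0060 for *usp19* and -0.057 to 0.014 for *usp7*. The cause was not tested. With the replicate number as a block, 1216 genes were higher and 1120 lower over all genes, and 3 conjugating and 4 deubiquitinating enzyme genes were higher. Same-numbered pools did not deviate together (correlations -0.00858, -0.0343 and -0.0934). With 3 pools a group, these values cannot settle whether same-numbered pools share a clutch or batch. The alternatives without *usp6nl* and without *ube2e1* were chosen after seeing the data. With 3 pools a group, changes smaller than about the intervals given could not be resolved.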
